A study of Mus musculus with 9 samples.

Results

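The imprinted growth regulators examined here were 10 genes, Igf2, Igf2r, Dlk1, Meg3, Peg3, Mest, Cdkn1c, Grb10, Plagl1 and Impact, taken as a list of names. The list was chosen with earlier results of these data known. They were represented by 33 probe sets paired by the array annotation with one of these symbols alone, out of 45037 probe sets and 18193 genes in all. RNA was measured on 9 Affymetrix mouse expression arrays. ES cell RNA was on 4 arrays, labelled ES2, ES6, ES8 and ES10, and RNA of embryoid bodies, the aggregates in which ES cells differentiate, was on 5 arrays, labelled EB1, EB3, EB5, EB7 and EB9. The study names E14 as the mouse ES cell line of its expression data. No genetic change or treatment is stated for either group. The age of the embryoid bodies and the strain are not given in the sources used here. The study describes the ES cell arrays as biological replicates. Nothing says whether the embryoid body arrays came from separate cultures, so their share of the spread behind the p-values may be technical.

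Imprinted genes are expressed mainly from the allele of one parent, for many of them as set by DNA methylation laid down in the germ line. Many act on growth of the embryo and placenta. As a rule of thumb, paternally expressed genes such as Igf2, Dlk1, Peg3, Mest and Plagl1 are associated with growth or its regulation in the embryo, and maternally expressed genes such as Igf2r, Cdkn1c and Grb10 with restraint of growth. The arrays measured total RNA of each gene and did not tell the parental alleles apart. They also measured whole cultures, in which fewer cells of a type and less RNA per cell cannot be told apart.

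All values below are log2 GCRMA intensities, and differences are embryoid bodies minus ES cells on the log2 scale. They ranged from 1.09 to 15.19. Levels under 4, which held 49.1% to 49.9% of any array's probe sets, are called near the floor here. Pairs of ES cell arrays correlated across probe sets at Pearson r = 0.995 to 0.998 and pairs of embryoid body arrays at 0.997 to 0.999, against 0.968 to 0.977 for mixed pairs. The labels could be checked against marker genes. Of 10 markers of pluripotent cells 8 were lower in embryoid bodies and 1, Tbx3, was higher, and their summed linear intensity was 21735 to 23693 on the ES cell arrays and 2760 to 5025 on the embryoid body arrays. Of 8 markers of heart and muscle 6 were higher, with summed intensities of 292 to 550 and 13310 to 15774.

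Embryoid bodies had more RNA of 9 of the 10 genes and less of 1, Impact, by limma over all probe sets at an adjusted p under 0.05. The rises ran from 1.98-fold for Meg3 to 91.6-fold for Dlk1, and 8 of the 10 genes rose at least 2-fold. With each gene represented by its brightest probe set, 15.7% of all genes were called higher and 14.7% lower, and 5.88% were called higher with at least a 2-fold change. Every embryoid body array lay above every ES cell array for the 9 genes that rose and below for Impact, where 15.6% and 19.4% of all genes showed the same separation in each direction. The median difference of the 10 genes was 2.46, against -0.04 over all genes. Because the list was chosen with earlier results known, its distance from the shares of all genes is a description and not a test. At the level of probe sets, 19 of 33 were called higher, 1 was called lower and 13 were not called, where 10.5% of all probe sets were called higher and 10.6% lower. Of those 33 probe sets, 5 were near the floor in both groups, and they are among those not called. Without array EB9, 19 were called higher and 5 lower, and calls over all probe sets went from 9507 to 17628.

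**Figure D1:**
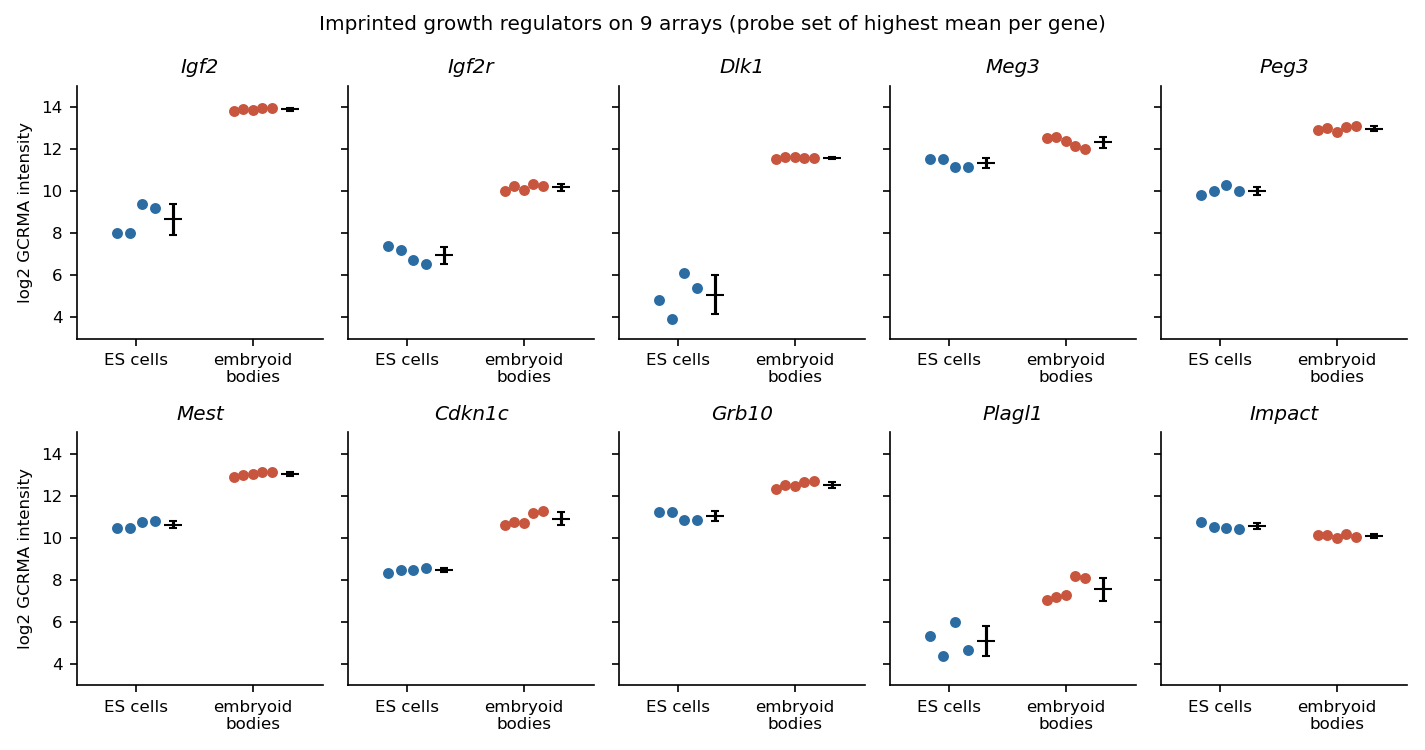
Log2 GCRMA intensity (vertical axis) of the brightest probe set of each of the 10 genes on the 4 ES cell arrays (blue) and 5 embryoid body arrays (red), drawn in order of array number, with a black line and bar for the mean and SD. The groups are apart for every gene, and among ES cells the points of Dlk1 (SD 0.93) and Igf2 (SD 0.75) spread most.

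Igf2 encodes the insulin-like growth factor of the embryo and Igf2r the receptor that clears it by carrying it to lysosomes. Igf2 read 8.003, 8.02, 9.39 and 9.22 on arrays ES2, ES6, ES8 and ES10, and 13.81, 13.89, 13.86, 13.97 and 13.95 on arrays EB1, EB3, EB5, EB7 and EB9. The groups were far apart, the embryoid body arrays lay close together, and ES8 and ES10 lay above ES2 and ES6. The difference was 5.24 (SE 0.29), a 37.8-fold rise (95% interval 23.8 to 59.9, limma adjusted p = 2.48e-06), and the gene ranked 25 of 18193 by size of rise. A dimmer Igf2 probe set, 1415931_at, read 5.13, 4.42, 5.90 and 4.74 in ES cells and 8.02, 8.37, 8.14, 8.35 and 8.10 in embryoid bodies. It rose by less, 3.15 (SE 0.26, limma adjusted p = 2.43e-05), and this gap between the 2 probe sets was itself tested on each array (difference of changes -2.09, exact permutation p = 0.0159, adjusted p = 0.0255 over 77 pairs of probe sets).

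Igf2r read 7.41, 7.19, 6.72 and 6.52 in ES cells and 9.99, 10.24, 10.05, 10.35 and 10.25 in embryoid bodies. All 5 embryoid body arrays were well above the ES cell arrays, among which ES8 and ES10 were here the lowest. The rise was 3.22 (SE 0.18), or 9.29-fold (7.04 to 12.3, limma adjusted p = 2.22e-06). The other Igf2r probe set, 1424112_at, rose by 3.47 (SE 0.15), from 6.32 to 6.88 in ES cells to 9.80 to 10.40 in embryoid bodies, and the changes of the pair did not differ beyond the spread of the arrays (exact permutation p = 0.143, adjusted p = 0.204). The annotated start of Igf2r carries 2 copies of the E-box CACGTG, which reads the same on both strands and occurs in 7.15% of 32851 promoter windows of RefSeq (GRCm38.p6, from 250 bases before to 50 bases after each start). The window is shown because Igf2r is the receptor of the pair and these are its only matches among 3 motifs searched on both strands, the TATA box TATAAA, the E-box CACGTG and the cAMP response element TGACGTCA. It is chr17:12769657-12769956 on the minus strand, with the E-boxes in capitals, the outer one starting 48 bases before the start site, and it holds 34 CG pairs, a number reached in 7.73% of windows.
Igf2r promoter: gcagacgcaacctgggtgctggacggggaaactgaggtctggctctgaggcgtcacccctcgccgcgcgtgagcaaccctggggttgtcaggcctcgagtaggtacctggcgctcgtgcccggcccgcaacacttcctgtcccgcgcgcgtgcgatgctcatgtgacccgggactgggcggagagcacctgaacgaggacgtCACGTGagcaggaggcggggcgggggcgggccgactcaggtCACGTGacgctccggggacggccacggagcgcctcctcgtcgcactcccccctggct
None of the 4 windows of Igf2 held any of the 3 motifs. A match describes the letters of the window and says nothing of binding.

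The log2 difference between Igf2 and Igf2r was taken on each array, which cancels any shift common to an array. It was 0.59, 0.83, 2.67 and 2.69 on ES2, ES6, ES8 and ES10, and 3.82, 3.65, 3.81, 3.62 and 3.71 on EB1, EB3, EB5, EB7 and EB9. With these brightest probe sets Igf2 rose more than Igf2r, by 2.02 (exact two-sided permutation p = 0.0159, the smallest that 4 against 5 arrays allow). The size of this gap differed between the lower and higher array numbers of the labels, with 3.05 over arrays 1 to 6 and 0.98 over arrays 7 to 10. Averaging the probe sets of each gene gave 0.85. Whether a gap was found depended on the Igf2 probe set. The brightest one gave 1.77 against the other Igf2r probe set (exact permutation p = 0.0159), whereas 1415931_at gave -0.07 and -0.33 against the Igf2r pair, neither beyond the spread of the arrays (exact permutation p = 0.825 and 0.381).

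Dlk1, a transmembrane protein of the Notch ligand family that marks progenitors, and Meg3, a long non-coding RNA, are neighbours in an imprinted domain and are expressed from opposite parental alleles. Dlk1 read 4.85, 3.92, 6.12 and 5.42 on ES2, ES6, ES8 and ES10, and 11.53, 11.61, 11.64, 11.60 and 11.58 on EB1, EB3, EB5, EB7 and EB9. The embryoid body arrays lay close together, while the ES cell arrays were low and scattered, with ES6 near the floor. The rise was 6.52 (SE 0.36), or 91.6-fold (51.7 to 162, limma adjusted p = 2.48e-06), rank 10 by size of rise. The other Dlk1 probe set, 1442724_at, was near the floor on every array, at 2.63 to 2.65 in ES cells and 2.60 to 2.63 in embryoid bodies, and was not called (limma adjusted p = 0.206).

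Meg3 read 11.52, 11.55, 11.13 and 11.15 in ES cells and 12.52, 12.57, 12.37, 12.14 and 12.01 in embryoid bodies. In both groups the arrays numbered 7 to 10 were the lowest, and the groups did not overlap. The rise was 0.99 (SE 0.14), or 1.98-fold (1.58 to 2.48, limma adjusted p = 0.000782). Meg3 had 11 probe sets. The 5 that read between 8.36 and 12.57 were all called higher, by 0.84 to 1.23, and the 6 that read between 3.995 and 6.69 were not called, with differences of 0.01 to 0.15 (limma adjusted p from 0.291 to 0.861). Unequal changes were found in 35 of the 55 pairs of Meg3 probe sets. Whether the dim probe sets reach other transcripts of the locus was not tested. Of the other non-coding genes of this domain on the array, Rian differed by 0.15 (limma adjusted p = 0.390) and Mirg by 0.09 (limma adjusted p = 0.496).

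Dlk1 minus Meg3 was -6.67, -7.63, -5.004 and -5.73 on the ES cell arrays and -0.98, -0.96, -0.73, -0.54 and -0.43 on the embryoid body arrays. The change of Dlk1 exceeded that of Meg3 by 5.53 (exact two-sided permutation p = 0.0159), by 6.26 over arrays 1 to 6 and by 4.89 over arrays 7 to 10. Averaging all probe sets of each gene, dim ones included, gave 2.76, and plain _at probe sets alone, which leave only the near-floor probe set of Dlk1, turned it to -0.94. The starts of both are shown because these neighbours of 1 domain changed by different amounts. The Dlk1 window, chr12:109452573-109452872 on the plus strand, held 9 CG pairs and none of the 3 motifs. The first Meg3 window, chr12:109540746-109541045 on the plus strand, held 13 CG pairs, the motif TGACGTCA starting 57 bases before the start site, and an overlapping pair of TATAAA matches, one on each strand, starting 29 bases before it. Capitals mark these matches. TGACGTCA, which reads the same on both strands, was in 1.79% and TATAAA in 13.6% of all windows.
Dlk1 promoter: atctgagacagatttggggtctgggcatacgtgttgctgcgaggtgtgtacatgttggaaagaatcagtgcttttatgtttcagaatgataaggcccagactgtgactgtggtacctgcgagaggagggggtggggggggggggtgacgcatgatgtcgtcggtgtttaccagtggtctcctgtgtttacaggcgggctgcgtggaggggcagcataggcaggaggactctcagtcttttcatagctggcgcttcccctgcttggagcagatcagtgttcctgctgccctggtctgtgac
Meg3 promoter: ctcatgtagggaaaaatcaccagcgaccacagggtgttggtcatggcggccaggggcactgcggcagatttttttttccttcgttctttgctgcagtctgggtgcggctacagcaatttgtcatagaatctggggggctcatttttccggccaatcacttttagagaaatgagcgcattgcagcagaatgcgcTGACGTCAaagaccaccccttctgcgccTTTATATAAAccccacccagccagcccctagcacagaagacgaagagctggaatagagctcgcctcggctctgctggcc

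**Figure D2:**
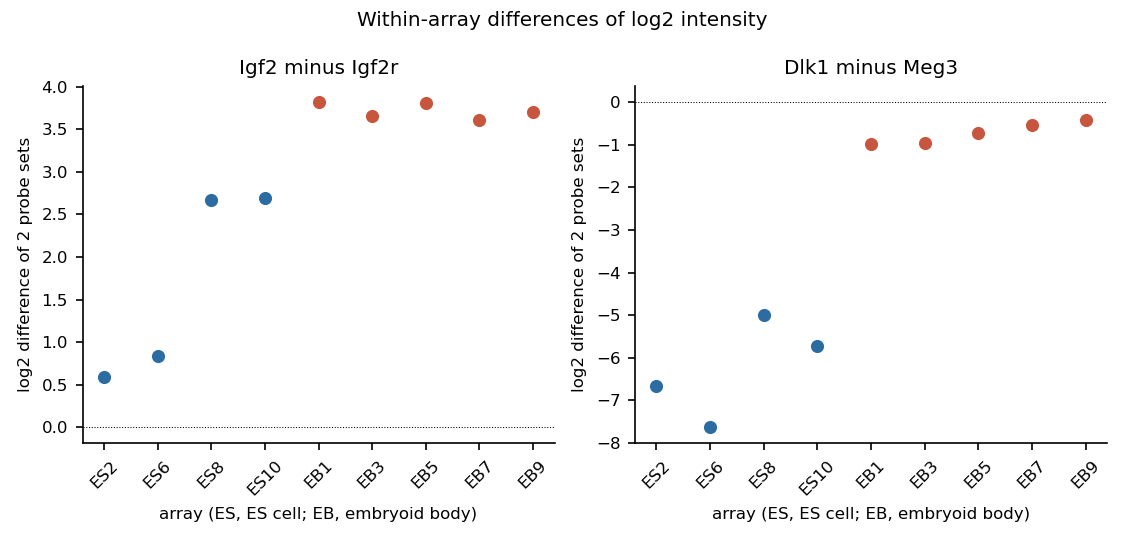
Within-array log2 difference between the brightest probe sets of Igf2 and Igf2r (left) and of Dlk1 and Meg3 (right), one point per array, ES cells in blue and embryoid bodies in red. Igf2 minus Igf2r is 0.59 to 2.69 in ES cells and 3.62 to 3.82 in embryoid bodies, and Dlk1 minus Meg3 is -7.63 to -5.004 and -0.98 to -0.43.

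The intracellular restraints on growth also rose. Cdkn1c encodes p57, an inhibitor of cyclin-dependent kinases. It read 8.33, 8.45, 8.47 and 8.56 in ES cells and 10.60, 10.77, 10.70, 11.18 and 11.26 in embryoid bodies. The ES cell arrays were tight, and EB7 and EB9 were the highest of all. The rise was 2.45 (SE 0.14), or 5.46-fold (4.37 to 6.84, limma adjusted p = 3.06e-06). Grb10 encodes an adaptor that binds the insulin and IGF1 receptors and dampens their signal. It read 11.21, 11.23, 10.82 and 10.82 in ES cells and 12.33, 12.50, 12.48, 12.63 and 12.68 in embryoid bodies, so that ES8 and ES10 were again the lowest. The rise was 1.504 (SE 0.11), or 2.84-fold (2.38 to 3.38, limma adjusted p = 1.23e-05). The dimmer Grb10 probe sets rose by 1.502 and 0.65. The smaller change, of 1430164_a_at, differed from both others (exact permutation p = 0.0159, adjusted p = 0.0255 each).

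Peg3 and Plagl1 encode zinc finger proteins, and Mest a protein with the fold of a hydrolase. Peg3 read 9.80, 10.003, 10.28 and 10.03 in ES cells and 12.91, 12.99, 12.82, 13.05 and 13.09 in embryoid bodies. Both groups were tight, and the rise of 2.94 (SE 0.09), or 7.70-fold (6.65 to 8.91, limma adjusted p = 1.43e-07), was accompanied by rises of 3.55 and 3.36 at the other 2 probe sets away from the floor. Its remaining 2 probe sets read at most 2.31 on every array and were not called. The Peg3 start, chr7:6730370-6730669 on the minus strand, is shown because it carries the same TGACGTCA motif as Meg3, in capitals, starting 178 bases before the start site, and it holds 13 CG pairs.
Peg3 promoter: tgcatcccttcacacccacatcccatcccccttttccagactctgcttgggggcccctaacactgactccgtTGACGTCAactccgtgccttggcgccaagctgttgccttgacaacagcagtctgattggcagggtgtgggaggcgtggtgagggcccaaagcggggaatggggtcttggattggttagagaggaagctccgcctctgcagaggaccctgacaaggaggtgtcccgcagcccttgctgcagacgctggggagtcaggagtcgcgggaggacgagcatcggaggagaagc
Of the 10 genes, 8 had windows that were used here, 15 in all, and none was used for Cdkn1c or Impact. Member windows on a chromosome that was set aside were left out, so a gene without windows here may have some. The 15 member windows used held 1 to 45 CG pairs (median 13), against a median of 7 over all windows. Plagl1 held 1 CACGTG, starting 182 bases before its start site.

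Mest read 10.47, 10.45, 10.73 and 10.80 in ES cells and 12.90, 12.98, 13.03, 13.13 and 13.13 in embryoid bodies. It rose by 2.42 (SE 0.09), or 5.34-fold (4.67 to 6.11, limma adjusted p = 2.35e-07), with little spread in either group. Plagl1 was dim in ES cells, at 5.31, 4.37, 5.99 and 4.68, and read 7.06, 7.18, 7.26, 8.19 and 8.11 in embryoid bodies. The groups were apart, and EB7 and EB9 stood above EB1, EB3 and EB5. The rise of 2.47 (SE 0.37), or 5.55-fold (3.09 to 9.95, limma adjusted p = 0.00101), had the widest standard error of the 10. It rests on 1 of 3 probe sets, an _x_at set that can also bind related sequences. The others differed by -0.13 and -0.04 (limma adjusted p = 0.173 and 0.0744).

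Impact, which encodes an inhibitor of the translation kinase Gcn2, was the exception in direction. It read 10.75, 10.53, 10.47 and 10.42 in ES cells and 10.12, 10.12, 9.98, 10.16 and 10.02 in embryoid bodies. The groups did not overlap, but the gap was narrow. It fell by 0.46 (SE 0.07), which is 1.38-fold (1.23 to 1.54, limma adjusted p = 0.0012), rank 1919 by size of fall. The other Impact probe sets, one at 4.45 to 5.24 and one near the floor, differed by -0.28 and -0.03 and were not called (limma adjusted p = 0.107 and 0.0857).

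**Figure D3:**
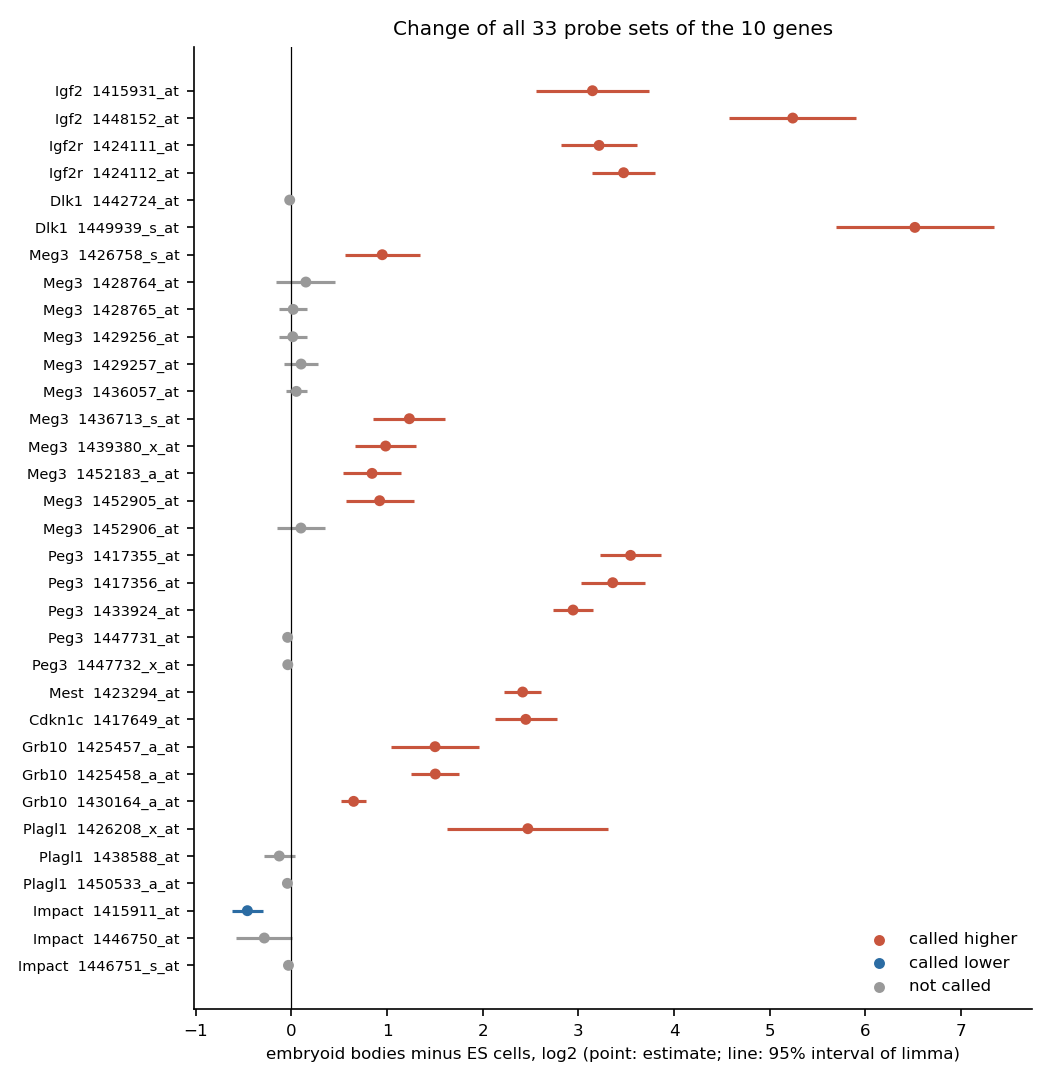
Difference between embryoid bodies and ES cells (log2, horizontal axis) for all 33 probe sets of the 10 genes, with the 95% interval of limma as a line. Red points were called higher (19), the blue point lower (1), and grey points were not called (13). Meg3 divides into 5 red and 6 grey points.

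Probe sets of one gene often gave different sizes of change, and most of the unequal pairs were of Meg3. Of 77 pairs of probe sets of the same gene, 50 differed on the exact permutation test after adjustment over the 77, which included 8 of 10 pairs of Peg3, 2 of 3 of Grb10, 2 of 3 of Plagl1 and 1 of 3 of Impact. Meg3 gave 35 of the 50, many of them a called probe set against a dim one that was not called. Pairs of one gene reuse its probe sets, so they are not separate observations. No such count was made over the other genes of the array, so the 50 of 77 does not set these genes apart. For pairs with both probe sets averaging at least 4 in a group, 39 of 65 differed. The 6 dim Meg3 probe sets pass this filter, so it does not remove such pairs. Without any 1 of the 4 ES cell arrays no pair passed, and 3 against 5 arrays allow no exact p below 0.0357.

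The labels number the arrays from 1 to 10, and several of the 10 genes differed between arrays 1 to 6 and arrays 7 to 10. In ES cells, arrays 8 and 10 minus arrays 2 and 6 gave 1.29 for Igf2, 1.39 for Dlk1, 0.50 for Plagl1, -0.68 for Igf2r and -0.40 for Grb10. In embryoid bodies, arrays 7 and 9 minus arrays 1, 3 and 5 gave 0.98 for Plagl1, 0.53 for Cdkn1c and -0.41 for Meg3, and between -0.01 and 0.22 for the other 7 genes. The sources used here do not say what the numbers stand for. Within arrays 1 to 6 the difference between embryoid bodies and ES cells was 5.84 for Igf2, 7.21 for Dlk1, 2.79 for Igf2r, 1.22 for Grb10 and -0.56 for Impact. Within arrays 7 to 10 it was 4.66, 5.82, 3.68, 1.83 and -0.35 in the same order, so each kept its direction in both.

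**Figure D4:**
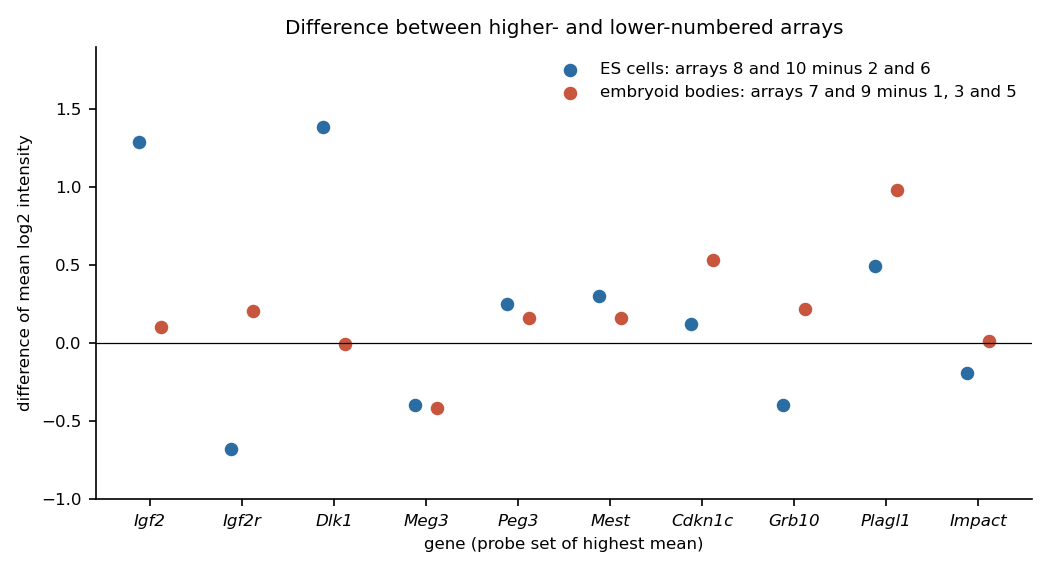
Mean log2 intensity of the higher-numbered minus the lower-numbered arrays for the brightest probe set of each gene, in ES cells (blue) and in embryoid bodies (red). Igf2 and Dlk1 differ by 1.29 and 1.39 in ES cells and by 0.11 and -0.01 in embryoid bodies, and Meg3 by -0.39 and -0.41.

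Markers of several other cell types also differed between the groups and between arrays of a group. Of 10 markers of mesoderm and mesenchyme 8 were higher in embryoid bodies and none lower. Their summed linear intensity was 5916 and 5594 on ES2 and ES6, and 13142 and 11747 on ES8 and ES10. It was 32541 to 34371 on EB1, EB3 and EB5, and 37294 and 38411 on EB7 and EB9. Thy1 of this list was near the floor on all arrays, as were Apoa1 and Amn of extraembryonic endoderm, Pecam1 of endothelium, Map2 and Neurog1 of neural cells, Ascl2 of trophoblast and Myog of muscle. The ES cell arrays high in the mesoderm and mesenchyme sum were those high in Igf2 and Dlk1. This split was shared by other sums. Heart and muscle markers summed to 292 and 309 on ES2 and ES6 against 550 and 453 on ES8 and ES10. Neural markers summed to 501 and 481 against 564 and 706. Sums of trophoblast and of blood and endothelium were also higher on ES8 and ES10, and that of extraembryonic endoderm was lower. In ES cells most of the mesoderm and mesenchyme sum came from Acta2 and Tagln, at log2 10.49 to 12.64 and 11.83 to 12.50. Col1a1 was also higher on ES8 and ES10 (9.03 and 9.02) than on ES2 and ES6 (6.98 and 6.78). Twist1 did not share the split, with 5.62 and 5.54 against 5.90 and 5.26. The sum over 8 markers of blood and endothelium, 4 of them higher in embryoid bodies, was 136 to 187 in ES cells, 7415 to 7959 on EB1, EB3 and EB5, and 1856 and 2142 on EB7 and EB9. In embryoid bodies this sum was mostly that of the globins Hbb-bh1 and Hba-x. On the log2 scale Hbb-bh1 read 12.33 to 12.50 on EB1, EB3 and EB5, and 10.26 and 10.42 on EB7 and EB9. Endothelial Kdr differed less, with 6.65 to 6.86 on the former and 6.43 and 6.70 on the latter. Markers of extraembryonic endoderm (5 of 10 higher) summed to 266 to 308 in ES cells and 1084 to 1304 in embryoid bodies. Neural markers (2 of 7 higher, 1 lower) summed to 481 to 706 in ES cells. In embryoid bodies they summed to 722 to 775 on EB1, EB3 and EB5, and to 1098 and 1026 on EB7 and EB9. On EB7 and EB9, the arrays high in Plagl1 and Cdkn1c, the neural and the mesoderm and mesenchyme sums were thus higher. The sums of blood and endothelium, extraembryonic endoderm and trophoblast were lower there. Neural Tubb3 read 8.01 and 7.67 on EB7 and EB9 against 6.48 to 6.71 on EB1, EB3 and EB5, and Ncam1 8.71 and 8.68 against 8.13 to 8.29. Sox1 and Pax6 were also higher on EB7 and EB9, and Nes was not. Trophoblast markers (1 of 7 higher, 1 lower) summed to 1133 to 1281 in ES cells and 843 to 1013 in embryoid bodies. Beside these marker counts, 15.7% of all genes were called higher and 14.7% lower. The trophoblast counts, 14.3% each way, were near those shares. The part of these cell types in the changes of the 10 genes was not tested.

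Other imprinted genes moved in both directions. Of 61 listed, 50 were measured, and 18 of these (36%) were called higher, 4 (8%) lower and 28 not called, with a median difference of 0.07, beside the 15.7% and 14.7% of all genes called higher and lower. Asb4, a substrate receptor of ubiquitin ligases, rose from 4.47 to 4.64 in ES cells to 7.93 to 8.44 in embryoid bodies, by 3.69 (SE 0.10). Ndn, a MAGE family protein of the Prader-Willi region, rose by 2.61 (SE 0.11), from 9.36 to 9.96 to 12.23 to 12.44, and Peg12, of the same region, by 2.46 (SE 0.27). In the other direction, Sfmbt2, a Polycomb group protein, fell by 4.72 (SE 0.33), from 8.48 to 8.96 in ES cells to 3.21 to 4.64 in embryoid bodies, with EB7 and EB9 the lowest. Gab1, an adaptor of receptor tyrosine kinases, fell by 1.72, and Cobl, an actin nucleator, fell by 1.503. All 6 had limma adjusted p values of 0.00021 or less. Airn, the antisense RNA of the Igf2r locus, read 6.02 to 6.11 in ES cells and 6.16 to 6.69 in embryoid bodies, a difference of 0.30 that did not pass the test (limma adjusted p = 0.0697).

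**Figure D5:**
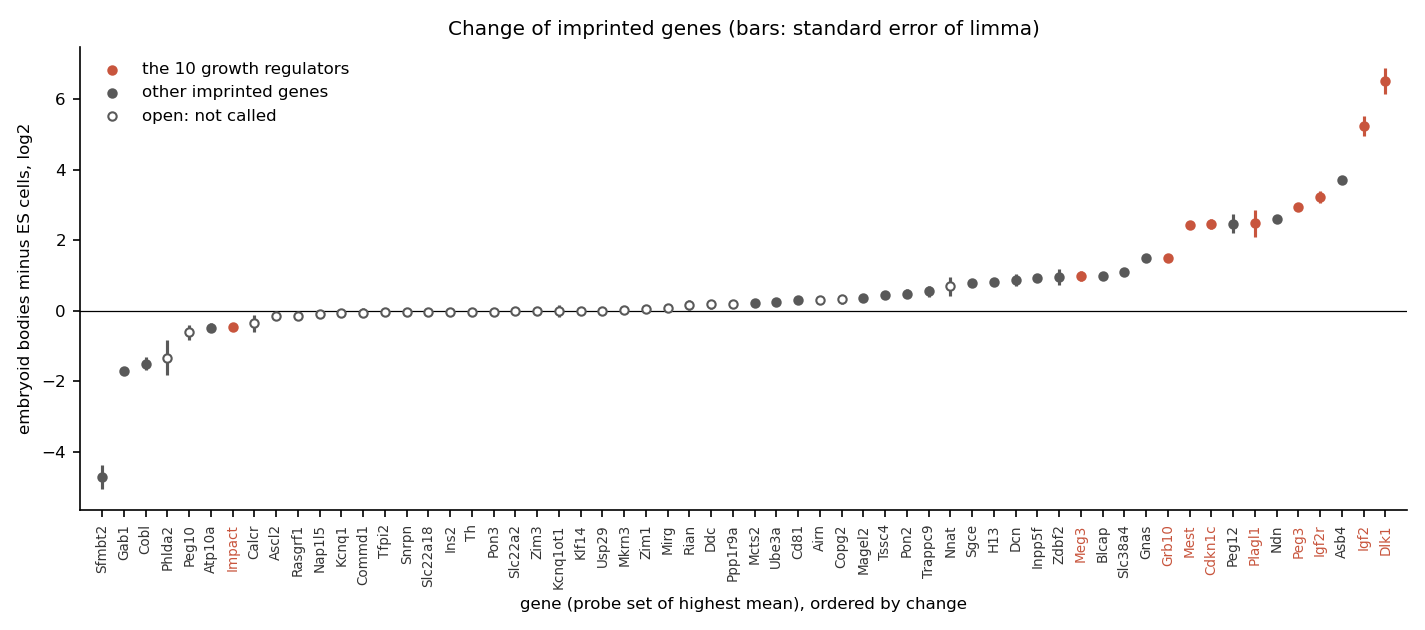
Difference between embryoid bodies and ES cells (log2, vertical axis, bars for the standard error of limma) of the 10 growth regulators (red) and the 50 other imprinted genes measured (grey), in order of size, with open points for genes not called. Of the growth regulators 9 lie above 0 and Impact below, and the genes at the ends are Sfmbt2 (-4.72) and Dlk1 (6.52).

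A list of genes that maintain imprints or that write, bind or remove DNA methylation held more members lower than higher in embryoid bodies. Of 14 measured out of 15, 9 (64.3%) were called lower and 1 (7.14%) higher, beside 14.7% and 15.7% of all genes, with a median of -0.59. Dnmt3l, the cofactor of the de novo methyltransferases, fell by 5.80 (SE 0.22, limma adjusted p = 3.43e-07), Dppa3, which protects the maternal genome from demethylation in the zygote, by 4.17 (SE 0.43, limma adjusted p = 9.30e-05), and Tet1, a methylcytosine dioxygenase, by 3.03 (SE 0.24, limma adjusted p = 1.72e-05). Zfp57, the zinc finger protein that binds methylated imprinting control regions, read 6.45, 5.99, 7.13 and 6.87 in ES cells and 5.47, 5.60, 4.89, 5.36 and 5.52 in embryoid bodies. It fell by 1.24 (SE 0.23, limma adjusted p = 0.00395). Dnmt1, the maintenance methyltransferase, differed by 0.12 with overlapping groups and was not called (limma adjusted p = 0.151).

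Of 15 measured partners of Igf2 in IGF and insulin signalling out of 16 listed, 8 (53.3%) were called higher and 2 (13.3%) lower, beside 15.7% and 14.7% of all genes, with a median of 0.49. Igf1r, the signalling receptor of Igf2, read 7.69 to 8.22 in ES cells and 9.40 to 9.60 in embryoid bodies, a rise of 1.56 (SE 0.10, limma adjusted p = 5.40e-06). Insr differed by 0.49 with overlapping groups (limma adjusted p = 0.0831). Among the binding proteins, Igfbp7 rose by 3.63 (SE 0.56) and Igfbp4 by 3.27 (SE 0.35), while Igfbp3 fell by 0.94 (SE 0.16) and Igfbp5 differed by 0.09 without passing the test (limma adjusted p = 0.342). Irs4, a receptor substrate, rose by 2.72 (SE 0.51). Like Igf2, Igfbp4 was higher on ES8 and ES10 (9.46 and 9.21) than on ES2 and ES6 (7.81 and 7.78). Among the 10 cyclin-dependent kinases, D and E cyclins and inhibitors listed beside Cdkn1c, 4 (40%) were higher and 2 (20%) lower, beside the same 15.7% and 14.7%. Ccnd2 rose by 4.82 (SE 0.43), Cdkn1a by 1.58 (SE 0.29), and Ccne1 fell by 1.05 (SE 0.08).

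The genes most like each member were sought among 8879 genes with a mean of at least 6, by Pearson r over the 9 arrays, which share the contrast of the groups, so the values only describe the pattern. Igf2 was nearest to Cdh2 (r = 0.999) and Col4a1 (r = 0.998), Igf2r to Lamp2 (r = 0.999) and Pja2 (r = 0.998), and Dlk1 to Smad6 (r = 0.999) and Ube2h (r = 0.998). Peg3 was nearest to Itm2c and Usp47, Mest to Pxdn and Cdh11, Cdkn1c to App and Eif1b, Grb10 to Limd2 and Itm2b, Plagl1 to Trib2 and Sertad4, Meg3 to Prdm6 and Acap2, and Impact to Rps19bp1 and Cct5. In deviations from the group means, which leave the contrast out, Igf2 was nearest to Igfbp4 (r = 0.998) and Id3 (r = 0.996). Dlk1 was nearest to Slit2 (r = 0.993) and Lrp1 (r = 0.977), and Mest to Jag1 (r = 0.968) and Sparc (r = 0.967). Plagl1 was nearest to Immp1l (r = 0.971) and Trib2 (r = 0.968). By the same measure Igf2r was nearest to Sestd1 and Tom1l1, Meg3 to Fgf5 and Utp14a, and Peg3 to Cnbp and Dnaja2. Cdkn1c was nearest to Sp1 and Crmp1, Grb10 to Vps26a and Bet1, and Impact to Uqcc2 and Elob. Between groups, these neighbours of Igf2r, Meg3, Peg3, Cdkn1c, Grb10 and Impact differed by -2.03 (Utp14a) to 1.41 (Bet1), so some fell.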

How the data were processed

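Total RNA of E14 ES cells (4 arrays) and embryoid bodies (5 arrays) was hybridized to Affymetrix mouse expression arrays, on 1 array per sample. The authors computed GCRMA values, which subtract background by a model of probe sequence, normalize arrays to each other and summarize the probes of a probe set. The deposited values were intensities on a linear scale, from 2.14 to 37448, and whether the 9 arrays were normalized together is not given in the sources used here. The log2 of each deposited intensity was taken with no further normalization. GCRMA compresses values near its floor, so folds of dim probe sets are uncertain. Precision is limited by the number of arrays.

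Of 45101 probe sets, the manufacturer's controls were left out and 45037 kept. The array annotation, which can be old, paired 34945 with 1 gene symbol, 932 with several and 9160 with none. A gene was represented by its probe set of highest mean over the 9 arrays out of those the annotation gave to it and to no other gene. Probe sets named _a_at, _s_at or _x_at can bind several transcripts or related sequences.

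Groups were compared with limma 3.58.1 in R 4.3.3 (lmFit and eBayes with trend and robust, two-sided, Benjamini-Hochberg over the 45037 probe sets), called at an adjusted p under 0.05, after the script was tested on simulated data. Differences within arrays were tested by exact permutation over arrays (scipy 1.17.1). Intervals are 95% intervals of limma. All probe sets of the 10 genes were described. From each list, genes were named that were called, did not overlap between groups and had the largest change, up to 6 other imprinted genes and up to 3 of the other lists, along with Airn, Igf1r, Insr, Zfp57 and Dppa3. Rian, Mirg, Dnmt1, Igfbp3 and Igfbp5 were added once their values were known. The members and lists were chosen with earlier results of these data known. Promoter sequences came from RefSeq (GRCm38.p6). Alternatives were other normalization, moderation, array weights, filters, probe set types and thresholds, a term for the array numbers, and each array left out in turn.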

Additional observations from a re-analysis of the deposited data

Results flagged for a closer look

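Of 56 groups of arrays examined, over the 28 probe sets of the 10 genes not near the floor in both groups, 6 held an array far from the others of its group by Dixon's test. With normally spread values, chance alone does so in about 1 of 20 groups. For Meg3, the dim probe set 1428765_at read 5.87 on ES10 against 5.83 on the other ES cell arrays, and 6.08 on EB9 against 5.80 to 5.82 on the other embryoid body arrays. Meg3 probe set 1429256_at read 6.58 on ES8 against 6.45 on the others, and 1429257_at read 5.62 on ES10 against 5.96 to 5.97. These 3 Meg3 probe sets were not called between groups. Values of such dim probe sets can repeat between arrays, as 1429256_at did at 6.453 on ES2, ES6 and EB7. The chance rate need not hold for them. Peg3 probe set 1417355_at, which was called, read 8.94 on ES8 against 8.42 to 8.46 on the other ES cell arrays. Plagl1 probe set 1438588_at, not called, read 4.85 on ES2 against 4.50 to 4.52. None of the brightest probe sets of the 10 genes was among them.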

How the results depend on the processing

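Of 189 recomputed changes of the 10 genes, 178 counted as the same, 9 moved in size and 2 turned. Refits were judged by direction and side of the threshold, and the permutation test by side of the threshold, none of them by size. Changes within arrays 1 to 6 and within arrays 7 to 10 were judged by direction and by size against the spread between arrays. Both that turned came from plain _at probe sets alone, which leave Dlk1 its near-floor probe set (-0.018) and Plagl1 a dim one (-0.13), leave Grb10 none, and turn the difference between Dlk1 and Meg3 to -0.94. With them 11 member probe sets were called, 10 of them higher. The number of member probe sets called lower, 1, was 2 after centring on the median, 5 with array weights and 1 to 5 with each array left out (5 without EB9), while 19 were called higher in each of these. A fold of at least 2 left 0 member probe sets and 0 member genes lower, and 8 other imprinted genes, 5 of them higher. With all probe sets of a gene averaged, 8 other imprinted genes were lower. The Igf2 to Igf2r difference was 3.05 in arrays 1 to 6 and 0.98 in arrays 7 to 10, and 1.66 to 2.36 with each array left out. Other probe sets, an alternative chosen after seeing the data, brought it to -0.069 and -0.33 with Igf2 1415931_at. Neither value lay beyond the spread of the arrays (exact permutation p = 0.825 and 0.381). Unequal pairs numbered 0 to 49 with each array left out, 0 whenever it was an ES cell array, where the smallest exact p is 0.0357. Calls over all probe sets were 9507, 49.7% of them higher, against 11752 (39.8%) by quantile normalization, 12230 (40.5%) by median centring, 18162 (29.3%) with array weights and 17628 (27.8%) without EB9. The cause was not tested. The planned comparison of Igf2 with H19 was not run, since the array annotation pairs the H19 probe set with a second symbol. Signal near the floor limits Dlk1 and Plagl1 in ES cells. The array numbers are odd for embryoid bodies and even for ES cells. Whether neighbouring numbers are pairs is not given in the sources used here, and no paired analysis was run.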
